A study of Mus musculus with 6 samples.

Results

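MicroRNA-22 (miR-22) is made from 1 hairpin whose stem yields 2 mature strands, miR-22-5p and miR-22-3p, and both were followed in a small RNA sequencing study of RAW 264.7 cells. They were taken by name from a table of 1109 mature mouse miRNA entries and are 2 of these. RAW 264.7 is an established macrophage-like line from a virus-induced tumour of a male mouse, so all libraries come from 1 cell line. The control group held 3 libraries of untreated cells. The oxLDL group held 3 libraries of cells exposed to low-density lipoprotein in oxidized form (ox-LDL), with 48 h in the sample names and no dose. Ox-LDL is the modified lipoprotein that macrophages take up on their way to becoming lipid-laden foam cells. The comparison asked which miRNAs differ between ox-LDL-treated and untreated macrophages.

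A miRNA hairpin is cut by Drosha and then Dicer into a short duplex. Usually 1 strand is kept by an Argonaute protein and guides it to target mRNAs, while the other, the passenger, is mostly degraded. The seed, bases 2 to 8 of the strand, does most of the target recognition. In miR-22 the 3p strand is the usual guide. It is well known from heart and skeletal muscle and is described as induced by the myeloid transcription factor PU.1 during monocytic differentiation. Targets described in mouse heart include the deacetylases Hdac4 and Sirt1.

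The hairpin lies on chromosome 11 at 75463716 to 75463810, plus strand (GRCm38.p6, RefSeq). GENCODE M21 places it inside exon 2 of the non-coding host gene Mir22hg, and inside exon 2 of a non-coding transcript of Tlcd2 that shares this exon. The hairpin and its arms are shown because all reads below come from the parts in capitals, the 5p arm at bases 19 to 40 of the 95 and the 3p arm at bases 57 to 78.
Mir22 hairpin: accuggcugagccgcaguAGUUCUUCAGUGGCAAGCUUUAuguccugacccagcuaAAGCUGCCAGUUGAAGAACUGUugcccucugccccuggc
The mature strands follow, each of 22 bases, with the seed in capitals.
mmu-miR-22-5p: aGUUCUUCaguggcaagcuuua
mmu-miR-22-3p: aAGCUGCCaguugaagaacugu
In the minimum free energy fold (RNAfold 2.7.2), 19 of the 22 bases of the 5p arm paired with the 3p arm. Each mature sequence occurred in 1 of 1005 RefSeq mouse hairpins, so the reads of neither arm had to be divided among copies listed there. The counts of both strands were whole numbers in all 6 libraries. None of the other mature sequences in the RefSeq table had bases 2 to 8 of either strand.

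The libraries held 5502826 to 7373188 miRNA reads. No 2 libraries agreed within sampling noise (lowest chi-square over its degrees of freedom 111), so each was counted as 1 replicate. Separate cultures are not stated, and the p-values then cover only the spread among these 6 samples, a spread that could be technical. Control cells carry 0 h in their column names, so exposure and time in culture cannot be told apart. The miRNAs taken as myeloid, miR-21a-5p, miR-142a-5p, miR-142a-3p, miR-146a-5p and miR-223-3p, were all present. They summed to 184514 to 187126 reads per 1000000 miRNA reads (RPM) in control and 169801 to 201346 RPM in oxLDL. Most of this sum was miR-21a-5p and miR-142a-5p, with mean shares of 10.4% and 7.13% of reads in control. The scarcest, miR-223-3p, had 512 to 565 reads in control and 328 to 978 in oxLDL. That was below the fibroblast-linked miR-199a-3p, which had 10308 to 12356 reads in control and 8939 to 10398 in oxLDL. Intervals given below for single libraries cover counting error only, since no molecular identifiers tell PCR copies apart. The interval of the arm difference between groups rests instead on the spread among replicates. Adaptor ligation favours some RNA ends, so levels of different miRNAs are read counts and not molecules.

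The guide strand miR-22-3p had 351357, 354182 and 323926 reads in control replicates 1, 2 and 3. It had 390967, 452785 and 431978 reads in oxLDL replicates 1, 2 and 3. As a share of all miRNA reads it made up 4.77% (95% Wilson interval 4.75 to 4.78), 4.97% (4.96 to 4.99) and 4.93% (4.91 to 4.95) in control. In oxLDL the shares were 7.10% (7.08 to 7.13), 6.89% (6.87 to 6.91) and 6.85% (6.83 to 6.86). All 3 oxLDL libraries were above all 3 controls, with a gap between the groups wider than the range inside either. About 1 read in 20.1 to 21.0 was miR-22-3p in control, and 1 in 14.1 to 14.6 in oxLDL. The mean share rose from 4.89% ± 0.109 to 6.95% ± 0.139 (SD, n = 3 each), a gain of 2.06 percentage points or 1.42 times. The two-sided exact permutation test of the share gave p = 0.1, the smallest value that 3 libraries against 3 allow.

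**Figure D1:**
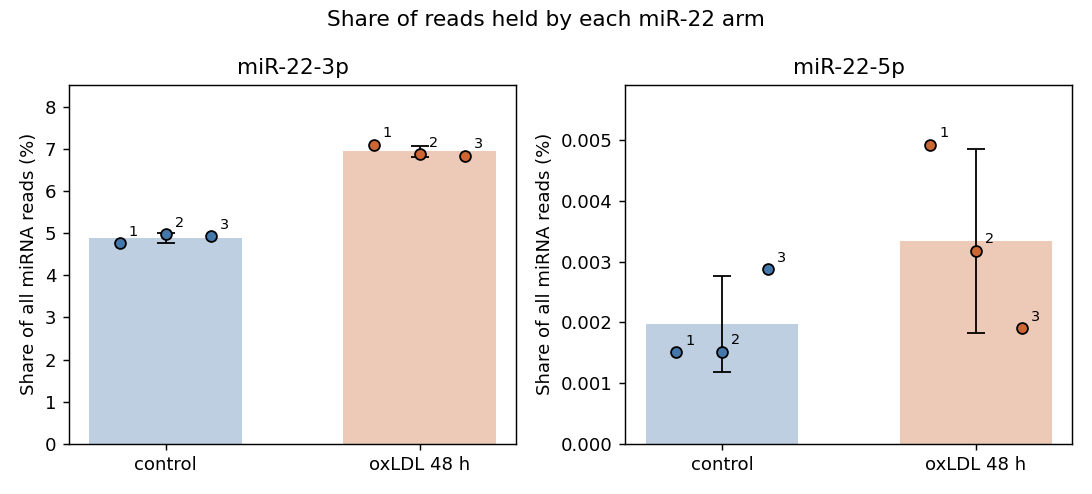
Share of all miRNA reads (percent, vertical axis from 0) held by miR-22-3p (left) and miR-22-5p (right) in the 3 control and 3 oxLDL libraries. Points are libraries labelled by replicate number, bars are means and error bars are SD. The miR-22-3p groups are well apart, at 4.77% to 4.97% against 6.85% to 7.10%, and the miR-22-5p groups overlap.

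In edgeR's quasi-likelihood test across all 475 entries with enough reads, miR-22-3p rose 1.58 times, from 46393 ± 1977 to 73259 ± 948 CPM (mean ± SD, n = 3), a count scaled by library size and TMM factor. The log2 fold change was 0.66 (SE 0.0799, Benjamini-Hochberg adjusted p = 0.000454). Each SE of an edgeR fold change was derived from that fold change and the F statistic of the test. A called rise was common in this comparison: 45.7% of tested entries passed an adjusted p of 0.05, 21.7% as rises and 24% as falls, and groups were apart in CPM in 59.2% of the entries, 28.2% with every oxLDL library above every control. The fold change of miR-22-3p was above that of 81.3% of the tested entries and ranked 89 from the top. Among the 78 entries with a mean of at least 1000 CPM, 13 had a higher fold change, and 31 rose and 13 fell. Over all tested entries the median log2 fold change was -0.13, and miR-22-3p stood 0.79 above that median on the log2 scale.

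The replicates of miR-22-3p were close together. The highest control was 1.09 times the lowest in CPM, and the highest oxLDL library 1.02 times the lowest. The coefficient of variation was 4.26% in control and 1.29% in oxLDL. Of the 23 other entries with a mean of at least 10000 CPM, 22 had a wider spread in control (median 10.995%) and 23 in oxLDL (median 6.71%).

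**Figure D2:**
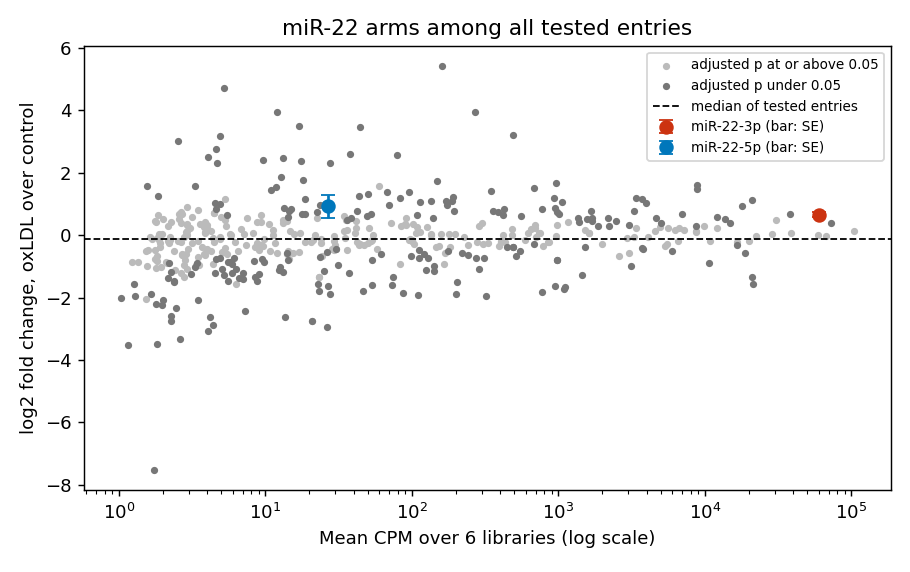
Log2 fold change of oxLDL over control (vertical) against mean CPM over the 6 libraries (horizontal, log scale) for the 475 tested entries. Dark grey points passed an adjusted p of 0.05, and the dashed line is the median of -0.13. Bars on the miR-22 arms are SE derived from the F statistic of the test. The miR-22-3p point stands at 0.66 near the right edge and miR-22-5p at 0.92 with a wide bar among entries of low level.

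In rank by reads, miR-22-3p was number 5 of 1109 in every control library and number 3 in every oxLDL library. It moved past miR-142a-5p, a miRNA specific to blood cells, and let-7f-5p, a member of the let-7 family that restrains growth and marks differentiated cells. Control shares were 6.34% to 7.81% for miR-142a-5p and 5.34% to 7.15% for let-7f-5p, all above miR-22-3p. In oxLDL they were 5.90% to 6.65% and 4.39% to 6.44%, all below it. The entries next below by mean share, let-7i-5p and miR-10a-5p, were under miR-22-3p in all 6 libraries.

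Ratios to other abundant entries inside a library need no scaling, and they were taken for the 10 other entries with the highest mean share. For 8 of the 10 the ratio of miR-22-3p was higher in all 3 oxLDL libraries than in any control, and for the other two the groups overlapped. Against miR-21a-5p, the most abundant entry and a miRNA linked with inflammation and cell survival, the ratio was 0.453 to 0.499 in control and 0.625 to 0.721 in oxLDL. Against miR-142a-5p it was 0.631 to 0.784 in control and 1.04 to 1.17 in oxLDL. The groups thus lay on opposite sides of equal reads, as they did against let-7f-5p (0.666 to 0.924 and 1.07 to 1.62). The widest shift was against miR-92a-3p, a member of the growth-linked miR-17-92 cluster that fell itself (log2 fold change -1.57, edgeR adjusted p = 5.31e-05): the ratio was 1.36 to 1.63 in control and 6.57 to 6.97 in oxLDL.

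The overlaps were those with miR-10a-5p and miR-16-5p. Against miR-10a-5p, a miRNA encoded in a Hox gene cluster, the ratio was 1.43 to 1.69 in control and 1.503 to 1.62 in oxLDL, and miR-10a-5p itself rose (log2 fold change 0.69, edgeR adjusted p = 0.00124). Against miR-16-5p, a repressor of cell cycle genes, it was 1.72 to 1.98 in control and 1.39 to 3.95 in oxLDL, where the libraries differed widely. The closest of the 8 that did not overlap was miR-27b-3p, with 0.657 to 0.819 and 0.828 to 0.934. Over all 474 other tested entries, the ratio of miR-22-3p was higher in every oxLDL library for 294 (62.0%), lower in every one for 49 (10.3%) and overlapped for 131.

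**Figure D3:**
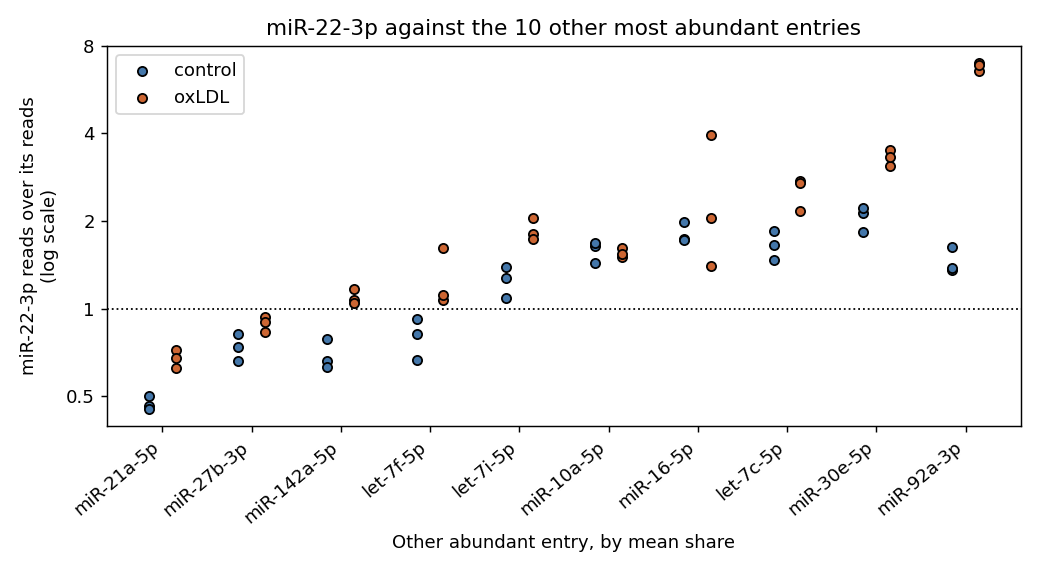
Reads of miR-22-3p over reads of each of the 10 other most abundant entries (vertical, log scale), one point a library, control in blue and oxLDL in orange. The dotted line marks equal reads. The groups are apart for 8 of the 10 entries and overlap for miR-10a-5p and miR-16-5p.

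In percentage points miR-22-3p gained more than any other entry in the table. Its 2.06 points were 15.6% of the 13.2 points gained by the 442 entries whose mean share rose. The next gains, named after their values were seen, were those of miR-10a-5p (1.39 points), miR-26a-5p (1.34 points) and miR-27b-3p (1.18 points). The widest losses, named in the same way, were of miR-92a-3p, which went from 3.37% ± 0.285 to 1.02% ± 0.0522, and of miR-222-3p, which went from 3.16% ± 0.320 to 1.13% ± 0.183 (SD, n = 3). Shares of a library sum to a fixed total, so a gain of 1 entry and a loss of another are not independent.

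The passenger strand miR-22-5p was scarce. It had 111, 108 and 189 reads in control replicates 1, 2 and 3, and 271, 209 and 120 in oxLDL replicates 1, 2 and 3. Scaled, that was 15.2, 14.3 and 25.8 CPM in control and 50.5, 34.3 and 20.2 CPM in oxLDL. OxLDL replicates 1 and 2 lay above all controls, but oxLDL replicate 3 lay below control replicate 3, so the groups overlapped. Its rank was 271, 271 and 241 in control and 203, 224 and 252 in oxLDL.

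The mean of miR-22-5p was 18.4 ± 6.40 CPM in control and 34.99 ± 15.2 CPM in oxLDL (SD, n = 3), with a log2 fold change of 0.92 (SE 0.365). It did not pass in edgeR's test (adjusted p = 0.0690). It did pass without control replicate 3 (log2 fold change 1.196, adjusted p = 0.0307) and when oxLDL replicate 3 was left out (1.19, adjusted p = 0.0213), and the fold change was 0.52 without oxLDL replicate 1 (adjusted p = 0.225). The two-sided exact permutation test of its share of reads gave p = 0.200.

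The spread of miR-22-5p was wider than counting error. Its coefficient of variation was 34.7% in control and 43.3% in oxLDL, against a counting error of 6.07% to 9.62% from the reads themselves. Of the 82 other tested entries within a factor of 2 of its level, 10 had a wider spread in control and 4 in oxLDL, with medians of 15.3% and 14.6%.

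The arm ratio compares both strands inside a library and needs no scaling. For every 100000 reads of miR-22-3p there were 31.6 (95% exact Poisson interval of the 5p reads 25.99 to 38.0), 30.5 (25.01 to 36.8) and 58.3 (50.3 to 67.3) reads of miR-22-5p in control. In oxLDL there were 69.3 (61.3 to 78.1), 46.2 (40.1 to 52.9) and 27.8 (23.0 to 33.2). The lowest and the second highest of the 6 values were thus an oxLDL and a control library, and the intervals of libraries of the same group did not all overlap. The 3p strand held 99.93% to 99.97% of the reads of the hairpin.

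The log2 ratio of 5p over 3p reads (pseudocount 0.5) was -11.34 ± 0.525 in control and -11.13 ± 0.659 in oxLDL (SD, n = 3). The difference of 0.22 (SE 0.389, 95% interval -0.69 to 1.12) did not pass in limma over 124 hairpins with at least 10 mean reads of each arm (adjusted p = 0.672). The interval covers a ratio of 5p over 3p reads from 0.621 to 2.18 times that of control, and changes within it are not excluded by these libraries. The difference was -0.10 without oxLDL replicate 1 (limma adjusted p = 0.837).

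**Figure D4:**
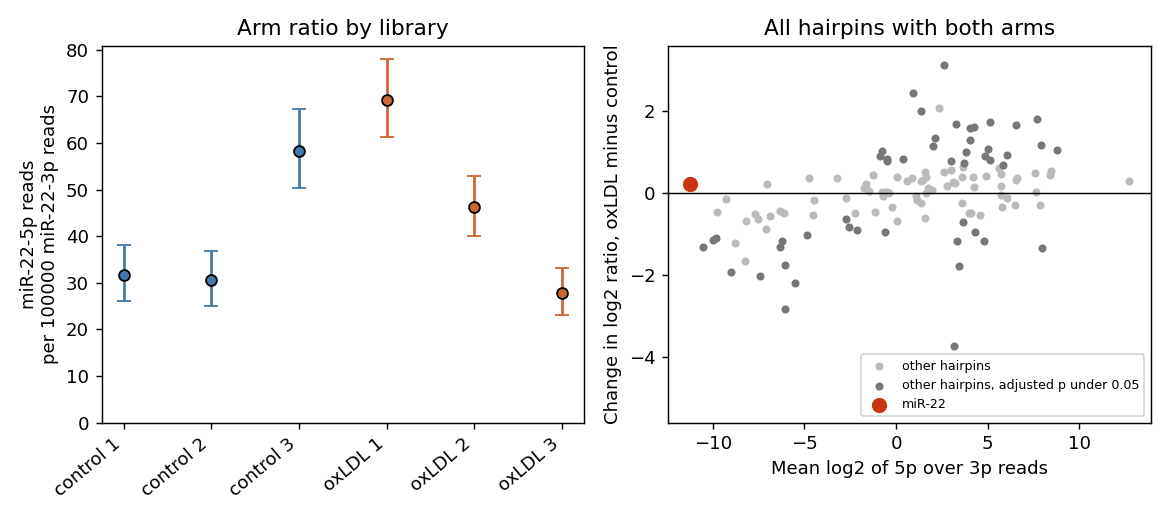
Left: reads of miR-22-5p per 100000 reads of miR-22-3p in each library, with 95% exact Poisson intervals of the 5p count. Right: change in the log2 ratio of 5p over 3p reads (oxLDL minus control) against the mean log2 ratio for 124 hairpins, dark grey where the adjusted p was under 0.05. The libraries of both groups interleave on the left, and miR-22 is the leftmost point on the right, at 0.22.

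Among those 124 hairpins miR-22 had the strongest tilt towards 3p (mean log2 ratio -11.24), ahead of miR-23a (-10.55) and miR-101b (-9.99). A hairpin with fewer reads cannot show as strong a tilt, and hairpins whose minor arm had under 10 mean reads are not among the 124. In the other direction miR-182 was tilted more strongly, towards 5p (12.68). The arm ratio changed in 39.5% of the hairpins. Of the 49 with more 3p than 5p reads, the 5p over 3p ratio fell in 15 and rose in 4, and of the 75 with more 5p reads it fell in 7 and rose in 23. Among the 10 hairpins most tilted towards 3p it fell in 4 and rose in none by this test, and miR-22 did not pass. The replicate spread of the log2 ratio of miR-22 (0.60) was above the median of the 124 hairpins (0.28), and 15 hairpins had a wider one.

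Profiles most like each strand were found by the root mean square (RMS) difference in log2 CPM over the 6 libraries, each profile centred on its own mean, among 298 entries with a mean of at least 10 CPM. Nearest to miR-22-3p was miR-26b-5p, of the miR-26 family that represses the chromatin enzyme Ezh2, with an RMS difference of 0.054. Its level was 5268, 5368 and 5403 CPM in control and 8805, 8448 and 8570 CPM in oxLDL. The 2 groups of libraries were apart by nearly the same step as for miR-22-3p (log2 fold change 0.69, edgeR adjusted p = 0.000435). Nearest entries of both strands were picked for likeness over these same libraries, so similar changes follow from the choice. Next came miR-361-5p (RMS 0.070), miR-15b-5p (0.071), miR-101c (0.073) and miR-152-5p (0.074), which rose 1.54, 1.46, 1.71 and 1.54 times. The median RMS difference from miR-22-3p was 0.441. Its own passenger strand stood at 0.494, number 170 of the 298. That distance includes the replicate spread of miR-22-5p (34.7% in control and 43.3% in oxLDL). It therefore does not tell whether the 2 strands changed differently.

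Nearest to miR-22-5p were miR-574-5p (RMS 0.292), miR-99a-5p (0.337), miR-32-5p (0.346), miR-152-3p (0.350) and miR-664-3p (0.353), against a median of 0.689. Of these, miR-99a-5p had 2650, 2524 and 2623 CPM in control and 6409, 5327 and 4210 CPM in oxLDL. Its oxLDL libraries fell in the same order as those of miR-22-5p, with oxLDL replicate 1 the highest. The rise of miR-152-3p was not past the threshold in 8 of 16 other settings (edgeR adjusted p up to 0.158), and that of miR-32-5p was not in 3. In edgeR's test miR-574-5p did not pass (adjusted p = 0.0591), though it did in 4 of the 16, namely no filter, DESeq2, median centring and without control replicate 3. By mean share the passenger stood between miR-547-3p and miR-32-3p above and miR-1191a and miR-101a-5p below it. None of these 4 was on 1 side of it in all 6 libraries.

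Other miRNA hairpins within 1000 kb of Mir22 on chromosome 11 were Mir212 and Mir132, at a distance of 290.2 and 289.969 kb, and 2 others without an entry in the table. Both are known as inducible by CREB. Of their 4 strands, miR-132-5p fell (log2 fold change -0.78, edgeR adjusted p = 0.0189), from 12.1 ± 1.58 to 7.05 ± 1.27 CPM. That call was lost with the replicate block, with DESeq2 and without oxLDL replicate 2 (adjusted p up to 0.0664). The strands miR-132-3p (log2 fold change -0.29), miR-212-3p (-0.33) and miR-212-5p (0.07) did not pass, the last with a sign that turned in 3 of 16 other settings.

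Lists of miRNAs that share a regulator or a tissue with miR-22 were described by counts and medians. Of 8 miRNAs linked with PU.1, 6 were tested, 2 rose and 1 fell, with a median log2 fold change of 0.38 against -0.13 over all tested entries. These 3 calls are close to the 45.7% called over all entries. The rises were of miR-146a-5p (log2 fold change 1.497, edgeR adjusted p = 0.000137), a brake on Toll-like receptor signalling, and of miR-29b-3p (0.89, edgeR adjusted p = 0.00106), a repressor of collagen genes. The fall was of the inflammatory miR-155-5p (-0.64, edgeR adjusted p = 0.0197), which did not pass without control replicate 1 or oxLDL replicate 3. The myeloid miR-223-3p (0.57, edgeR adjusted p = 0.169) missed the threshold, but passed with no filter and when oxLDL replicate 1 was left out.

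Of 8 miRNAs of heart and muscle, 5 were tested and none passed in edgeR's test (1 at an unadjusted p under 0.05), against 45.7% called over all entries. Their median log2 fold change was -0.96 (0.22 without control replicate 2). With DESeq2, with library totals, with totals without abundant entries and without control replicate 3, 1 member was lower, and with no filter 5 of 6 were. Their summed level was 110 to 595.6 RPM in control and 73.6 to 254.5 RPM in oxLDL, highest in control replicate 2. The 16 markers of other cell types or serum summed to 2166 to 2874 RPM in control and 1680 to 2273 RPM in oxLDL. The largest part of this sum was miR-199a-3p. Its mean moved from 1571 to 1644 CPM, a change that edgeR's test did not call (adjusted p = 0.675). Next by level was miR-126a-3p, at 393 CPM for control cells and 184 after ox-LDL. Its fall was called (edgeR adjusted p = 0.0333), but not in 5 of 16 other settings. Other called falls were of markers with control means of 7.25 to 80.3 CPM. The sum therefore says little about the scarcer markers. Of the 13 markers tested, 1 was higher and 5 were lower. Called in either direction were 46.2%, near the 45.7% over all entries. By direction the list leaned lower, since over all entries 21.7% were higher and 24% lower. Its median log2 fold change was -1.33, against -0.13 over all tested entries. The number lower was 3 without control replicate 2 or oxLDL replicate 2, 2 of 8 with the filter at 10 CPM, 8 with library totals and 11 of 16 with no filter. No library had more than 1 of the 16 at 0, the fibroblast-linked miR-145a-5p in oxLDL replicate 3. The reads of miR-22-3p were 17.3 to 22.0 times the sum of the 16 markers in control and 31.3 to 40.7 times in oxLDL. That multiple contains the rise of miR-22-3p itself, and a contribution from other cells was not tested. Without control replicate 2 the log2 fold change of miR-22-3p was 0.64 (edgeR adjusted p = 0.00185).

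**Figure D5:**
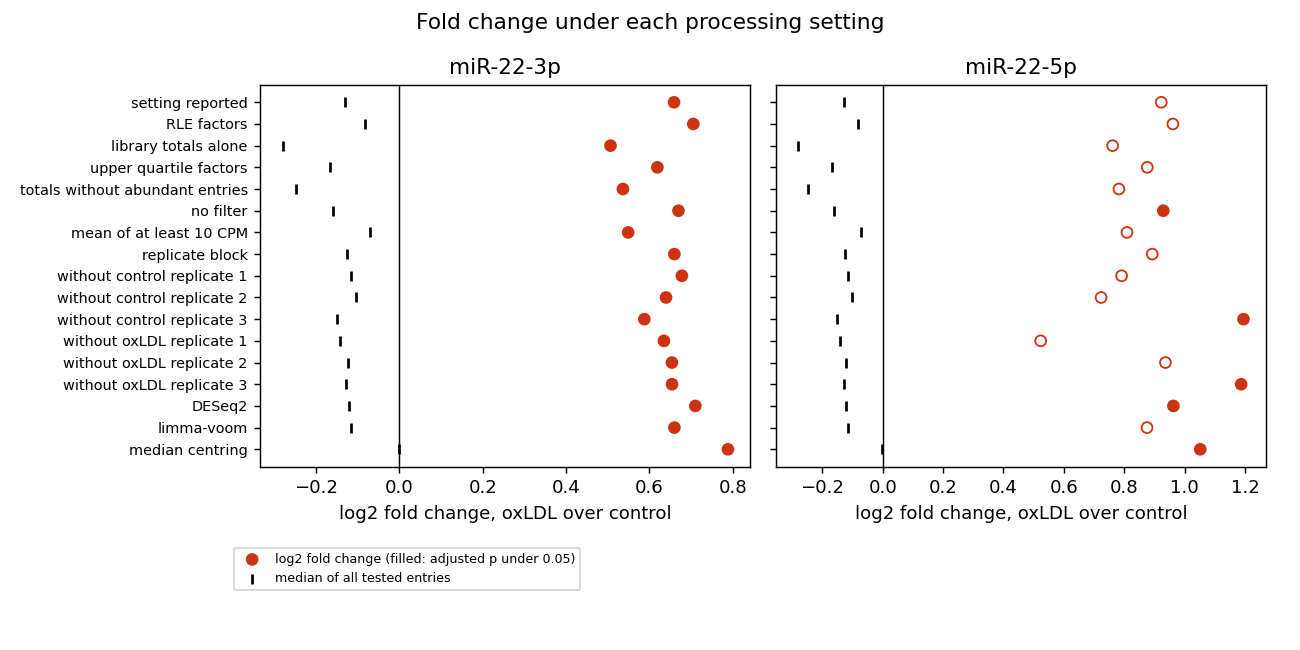
Log2 fold change of miR-22-3p (left) and miR-22-5p (right) under the setting reported and 16 others. Circles are filled where the adjusted p was under 0.05, and black ticks are the median of all tested entries in that setting. All circles are right of 0; those of miR-22-3p are all filled, between 0.51 and 0.79, and those of miR-22-5p are open in the setting reported and filled in 5 others.

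The size of the rise of miR-22-3p depended on the scaling. Its log2 fold change was 0.51 with library totals alone (edgeR adjusted p = 0.000974), 0.54 with totals that leave out the 10 other most abundant entries and both strands (edgeR adjusted p = 0.000463), 0.62 with upper quartile factors and 0.71 with RLE factors. With median centring, chosen after seeing the data, it was 0.79. The median of all tested entries moved along with it, from -0.28 with library totals to -0.08 with RLE factors. The same choices gave miR-22-5p 0.76, 0.78, 0.88, 0.96 and 1.05.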

How the data were processed

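Per the labels' protocols, Trizol was used for total RNA, a gel step selected small RNA, both ends received adaptors, and cDNA was amplified and read on an Illumina HiSeq 2500. The only table the authors deposited holds estimated counts, reads assigned to each mature miRNA without scaling. The submitters' processing notes name the build GRCm38.p5. Aligner, counter and miRNA database are not given in the sources used here. Of 6654 values 117 were not whole (tolerance 1e-06) and were rounded for count tests. Samples were matched to columns through the column name, which gives the number and, for oxLDL, the group. Control columns name RAW cells at 0 h and not the word control. They were taken as the controls because these are the only untreated group.

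All entries were fitted with edgeR 4.0.16 (R 4.3.3) with its filter by group, TMM factors, a quasi-likelihood test and Benjamini-Hochberg adjustment at 0.05. Centred log2 profiles used a prior count of 2. Arm ratios were fitted with limma 3.58.1. DESeq2 1.42.0, limma-voom, other scalings and filters, other arm limits and leaving out each library were alternatives. The scripts were tested on simulated data. Mature sequences of RefSeq matched 957 of the 1109 entries by name. The members and lists were chosen with earlier results of these data known. Named miRNAs are the members, the 5 nearest profiles of each, the 10 other most abundant entries and 2 rank neighbours on each side. Also named are hairpins within 1000 kb and all miRNAs taken as myeloid. From the PU.1 list and the markers of other cell types, the 4 members with the smallest p are named. From the heart and muscle list none is. Entries named by gains, losses or arm tilt were named after their values were seen. So were markers of other cell types named for their level or for a lack of reads. One further list fixed for this comparison is not reported here.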

Additional observations from a re-analysis of the deposited data

How the results depend on the processing

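The rise of miR-22-3p passed under all 16 alternatives, of edgeR, DESeq2 and limma-voom (log2 fold change 0.51 to 0.79, adjusted p up to 0.00425), and 0.59 to 0.68 with 1 library left out. For miR-22-5p the direction held in all 16, but the call did not: it passed with no filter (log2 fold change 0.93, adjusted p = 0.000858), DESeq2 (0.96, adjusted p = 0.0278) and median centring (1.05, adjusted p = 0.0449), and with 1 library left out the value ran from 0.52 to 1.196. The cause was not tested. The arm difference ran from -0.10 to 0.56 with 1 library left out and did not pass in any of 13 alternatives. The number of called entries was 161 to 251 under the alternatives, against 217. Rises were 47.5% of the calls, 34.2% with library totals and 58.7% with median centring, which was chosen after seeing the data. The share test cannot pass 0.05 with 3 against 3, so it says nothing on stability; the log2 ratio of mean shares was 0.49 to 0.52 for miR-22-3p and 0.37 to 1.14 for miR-22-5p with 1 library left out.

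Replicate numbers showed no sign of pairing the samples. Deviations of libraries with the same number had correlations of -0.30, -0.23 and -0.12, and no control library correlated best with its own number. With 3 libraries a group such correlations are tightly constrained, so they cannot tell whether samples were handled in pairs. With the replicate block miR-22-3p had a log2 fold change of 0.66 (adjusted p = 0.00425), miR-22-5p 0.89 (adjusted p = 0.115) and the arm ratio a difference of 0.22 (limma adjusted p = 0.731), and 178 entries were called. Of the 50 other entries examined by name or list, 26 were called and 17 of these kept the call in every alternative. Over all tested entries 45.7% were called, and some of the 50 had been picked for profiles like those of the miR-22 strands. The uncalled miR-212-5p turned to -0.084 with library totals, -0.052 with totals without abundant entries and -0.038 with a filter at 10 CPM. At 108 to 271 reads, miR-22-5p had a counting error of 6.07% to 9.62%, below its replicate spread of 34.7% and 43.3%.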
